A study of Homo sapiens with 30 samples.

Results

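Messenger RNA levels of 10 target genes of the tumor suppressor p53 (CDKN1A, MDM2, GDF15, SESN1, BBC3, FAS, TP53I3, RRM2B, ZMAT3 and BTG2) were followed in 2 human cell lines treated with Omomyc. Their positions below are those of GENCODE 29 on GRCh38, matched by gene ID. The 10 genes were taken by name from a deposited table of 57992 genes, as well-known p53 targets and not for how they behaved in these libraries, although earlier results of the same data were known when they were listed. Omomyc is a dimerization domain of the transcription factor Myc with altered residues that binds DNA at E boxes without activating transcription, and it was added to the cells as a purified protein. HCT116 is a colon carcinoma line, labeled as having stabilized MYC, and carries wild-type p53. Ramos is a Burkitt's lymphoma line, labeled as having a MYC translocation, and carries mutant p53.

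Omomyc was given to HCT116 cells at 2 and 10 μM and to Ramos cells at 500 nM and 2.5 μM, each for 6 and for 24 h, and both lines also had untreated cells. Each of these 10 groups had 3 libraries of total RNA depleted of rRNA, which gave 30 libraries in all. The study's methods give a slightly higher dose than the label for the lower dose in HCT116 cells, and the label is used here. For libraries whose title says 24 h, another label field gives 4 h, and the title was used. The methods state that HCT116 cells received Omomyc with ProteoJuice, a protein transfection reagent, and leave unclear whether the untreated cells received it. No delivery reagent is given for Ramos cells. 1 line stands for each tumor type. Nothing says whether the 3 libraries of a group came from separate cultures, so p-values measure the spread between these libraries, which may be technical.

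p53 is a transcription factor that is kept low by the ubiquitin ligase MDM2 and accumulates after DNA damage and other stress. It binds response elements near its target genes and activates genes that stop the cell cycle, repair DNA, restrain growth signals or start apoptosis, and it also activates MDM2, which closes a feedback loop. Myc meets this pathway at CDKN1A, where Myc bound to the zinc finger protein Miz-1 represses transcription. Mutant p53 proteins commonly lose the ability to bind response elements, although their target genes keep other activators.

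A p53 response element consists of a pair of adjacent 10-letter elements. Promoter windows of 300 bases (250 before and 50 after an annotated start, RefSeq, GRCh38.p14) were searched for 9 of the 10 genes, in 17 windows. RRM2B was left out of this search. A pair of adjacent elements, with both 4-letter cores intact and at most 3 other mismatches over the 20 letters on either strand, was found in windows of SESN1, FAS and GDF15. Of all 35116 promoter windows, 0.427% held such a pair. The letters CACGTG, the E box preferred by Myc and Max, were found in the window of BBC3 and in no other member's window, and in 7.26% of all windows. Sequences that hold these letters are shown 5′ to 3′ on the strand of the gene because their genes were among those that moved in HCT116 cells, and a match is a description of the sequence only. The capitals mark the paired p53 elements in SESN1, FAS and GDF15 and CACGTG in BBC3.
SESN1: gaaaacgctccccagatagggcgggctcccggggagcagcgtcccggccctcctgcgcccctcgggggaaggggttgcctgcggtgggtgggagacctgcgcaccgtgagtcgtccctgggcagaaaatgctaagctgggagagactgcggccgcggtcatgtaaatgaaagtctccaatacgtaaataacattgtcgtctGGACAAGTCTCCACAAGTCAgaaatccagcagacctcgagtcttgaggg
FAS: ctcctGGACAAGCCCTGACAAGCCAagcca
GDF15: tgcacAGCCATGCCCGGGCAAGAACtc
BBC3: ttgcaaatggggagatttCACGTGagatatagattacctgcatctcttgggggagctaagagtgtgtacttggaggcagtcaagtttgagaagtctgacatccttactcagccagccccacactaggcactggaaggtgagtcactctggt
The SESN1 sequence is chr6:109008989-109009238 (minus strand), the 250 bases upstream of a start, and its paired elements begin 49 bases before that start. The BBC3 sequence is chr19:47232767-47232917 (minus strand), upstream of the start and outside annotated exons. The FAS site is chr10:88991304-88991333 (plus strand), and the GDF15 site is chr19:18386181-18386207 (plus strand), both within annotated exons. The paired elements began 122 bases before an annotated start in FAS and 28 bases after the start in GDF15. No window of CDKN1A, MDM2, TP53I3, ZMAT3 or BTG2 held these letters, which says only that they are not in these windows.

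Marker genes matched the labeled lines. Of 8 epithelial markers, 7 reached a mean of 0.5 RPKM in HCT116 cells and 0 in Ramos cells, and of 8 B cell markers, 8 did so in Ramos cells and 1 in HCT116 cells. RPKM counts the reads on a gene per kilobase of its length, scaled by library size, so that levels of different genes can be compared. The read counts are not in the table. The spacing of the lowest RPKM gave relative depths of 0.478 to 1.11 in HCT116 libraries and of at least 0.606 in Ramos libraries, taking the first untreated HCT116 library as 1. Library 3 of HCT116 cells treated with 10 μM for 6 h was the shallowest, and the small RNA RN7SL1 made up 19.7% of its summed RPKM. The 10 most abundant genes took 23.8% to 31.4% of the sum in untreated HCT116 libraries and 35.8% to 54.2% in those treated for 6 h. Some results that other scalings change are given under those scalings beside them, and others only in the closing section on processing. Relative depth was 1 to 1.11 in the untreated HCT116 libraries and 0.478 to 0.722 in those treated for 6 h, so it moved with treatment, and its part in the results was not tested. In these bulk libraries, less RNA in every cell and fewer cells with the RNA cannot be told apart.

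In untreated cells, the 10 genes differed widely in level and between the lines. On the RPKM scale, the order in HCT116 cells ran from MDM2 at 97.1 ± 6.87 (SD, n = 3) and CDKN1A at 70.4 ± 4.68 (SD, n = 3) down to SESN1 at 7.31 ± 0.362 (SD, n = 3) and ZMAT3 at 5.89 ± 0.35 (SD, n = 3). MDM2 also led in Ramos cells, at 166 ± 2.46 RPKM (SD, n = 3), followed by BTG2 at 117 ± 2.49 RPKM (SD, n = 3). GDF15, which encodes a secreted stress cytokine, lay at 57.9, 66.1 and 63.8 RPKM in the untreated HCT116 libraries and at or below 0.273 RPKM in every Ramos library, where it was not tested.

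Between the untreated lines, 5 of the 10 genes were higher and 4 lower in HCT116 cells, while 84.6% of all 15647 genes tested were called at a Benjamini-Hochberg adjusted p under 0.05 (limma). CDKN1A was 13.5-fold higher in HCT116 cells on the scale of log2(RPKM + 0.5) (log2 difference 3.75, adjusted p = 4.51e-09, limma). BBC3 and TP53I3 were higher by log2 differences of 2.08 and 1.95, ZMAT3 by 0.63 and GDF15 by 6.77, the last against a level close to 0 and therefore dependent on the added 0.5. BTG2 was lower in HCT116 cells by a log2 difference of -3.41 (adjusted p = 1.2e-08, limma). The log2 differences of MDM2, SESN1 and RRM2B were -0.77, -0.32 and -0.25. After all libraries were scaled to the same summed RPKM (an equal sum), SESN1 and RRM2B turned to 0.22 and 0.32 and MDM2 did not pass (-0.19). FAS did not pass the test (log2 difference 0.08, adjusted p = 0.592, limma).

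**Figure D1:**
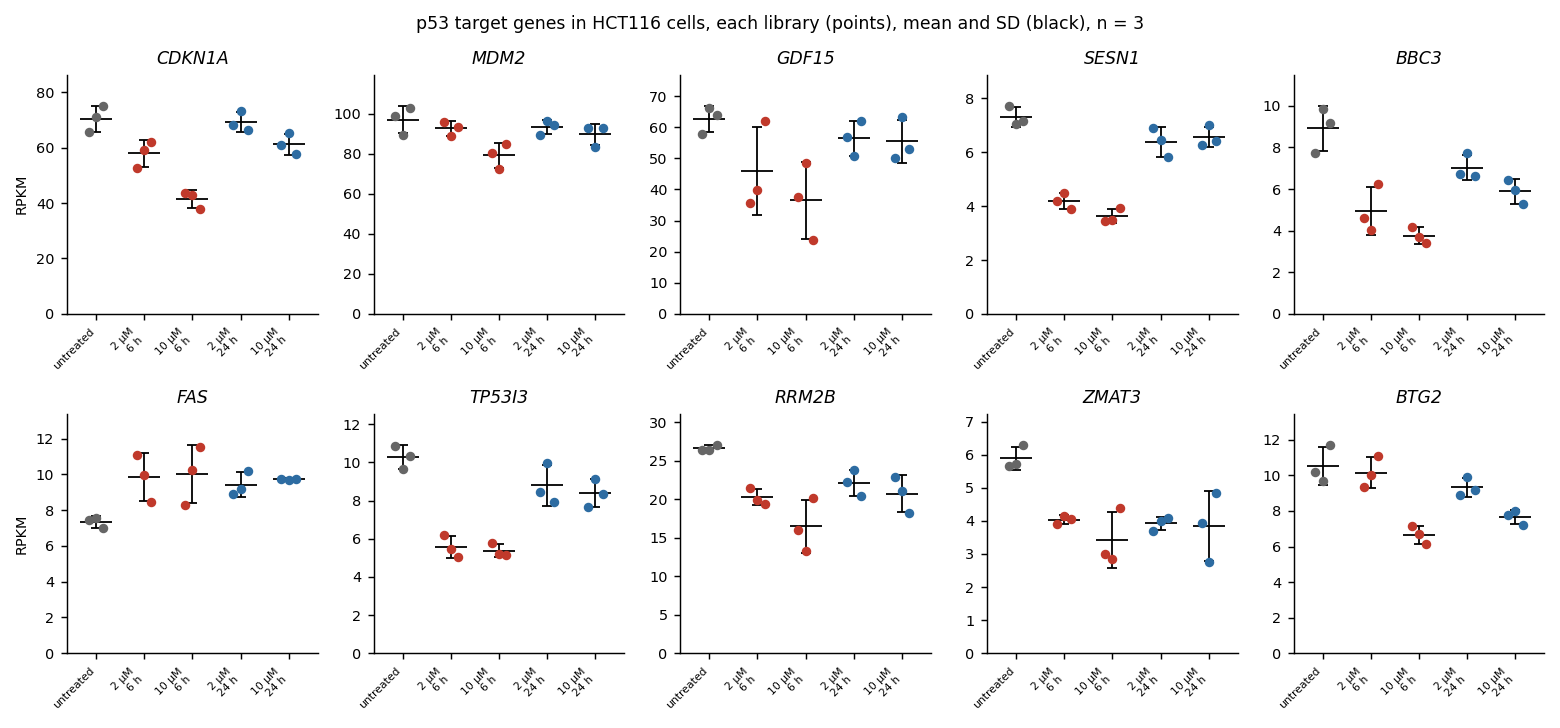
RPKM of the 10 p53 target genes in each HCT116 library (points), with the mean and SD of the 3 libraries per group in black, for untreated cells and for 2 or 10 μM Omomyc at 6 h (red) and 24 h (blue). CDKN1A, SESN1, BBC3 and TP53I3 lie lowest at 6 h and nearer to the untreated libraries at 24 h, ZMAT3 stays low at both times, and FAS lies above the untreated libraries in all 4 treated groups.

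In HCT116 cells treated for 6 h, most of the 10 genes fell. At 2 μM, 7 genes fell (CDKN1A, GDF15, SESN1, BBC3, TP53I3, RRM2B and ZMAT3), 1 rose (FAS) and MDM2 and BTG2 did not pass the test, against 47.3% of all 14550 genes called, 31.8% lower and 15.5% higher. At 10 μM, 8 genes fell (the same 7 and BTG2), none rose, and MDM2 and FAS did not pass, against 30% of all 14785 genes called, 21.2% lower and 8.84% higher. Between treated and untreated libraries there was no overlap for 6 lower genes and 1 higher gene at 2 μM (57.8% of all genes did not overlap) and for 9 lower genes and 1 higher gene at 10 μM (50.2% of all genes). The median log2 fold change of the 10 genes was -0.43 at 2 μM and -0.74 at 10 μM, beside medians of -0.12 and -0.11 over all genes tested. With the libraries rescaled to an equal sum, the medians of the 10 genes were -0.76 and -1.21, beside -0.42 and -0.56 over all genes, and FAS no longer passed at 2 μM. With median-ratio scaling they were -0.30 and -0.60, beside 0.00 and 0.02. Without library 3 of the 10 μM group, all 10 genes were called at 10 μM, as were 7565 genes in all in place of 4439.

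Among the genes that stop the cell cycle, CDKN1A (chr6:36676460-36687339, plus strand) encodes p21, an inhibitor of cyclin-dependent kinases. Its level was 65.5, 70.9 and 74.8 RPKM in the untreated HCT116 libraries, 52.6, 59.2 and 62.0 RPKM after 6 h with 2 μM and 43.7, 42.7 and 37.7 RPKM after 6 h with 10 μM. The 3 groups did not overlap, and the libraries at 10 μM were the lowest. The log2 fold change was -0.28 at 2 μM (SE 0.08, adjusted p = 0.0165, limma) and -0.76 at 10 μM (SE 0.10, adjusted p = 0.00268, limma), and the call at 2 μM was lost with median-ratio scaling (-0.15, adjusted p = 0.191, limma). BTG2 (chr1:203305491-203309602, plus strand), an antiproliferative gene that slows entry into S phase, was at 10.2, 9.68 and 11.7 RPKM untreated, 9.36, 10.0 and 11.1 RPKM at 2 μM and 7.13, 6.70 and 6.14 RPKM at 10 μM. The libraries at 2 μM overlapped the untreated ones, and those at 10 μM lay below both (log2 fold change -0.62, adjusted p = 0.00826, limma). GDF15 (chr19:18374731-18389176, plus strand) was at 35.5, 39.9 and 62.0 RPKM at 2 μM and 37.5, 48.4 and 23.7 RPKM at 10 μM. Its SEs were the largest among the 10 genes, 1 library at 2 μM lay within the untreated range, and its calls (-0.49, adjusted p = 0.0413; -0.83, adjusted p = 0.0338, limma) were lost without any 1 of the 3 untreated libraries.

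The apoptosis genes divided. BBC3 (chr19:47220822-47232766, minus strand) encodes PUMA, a BH3-only protein that frees Bax and Bak to open mitochondria. Its level fell from 7.73, 9.84 and 9.19 RPKM in untreated HCT116 libraries to 4.59, 4.01 and 6.22 RPKM after 6 h with 2 μM and 4.19, 3.69 and 3.39 RPKM with 10 μM, without overlap with the untreated libraries. The log2 fold changes of -0.81 (SE 0.15, adjusted p = 0.00224, limma) and -1.14 (SE 0.13, adjusted p = 0.00172, limma) were on the log2(RPKM + 0.5) scale, and the mean RPKM was 55.4% and 42.1% of the untreated mean. TP53I3 (chr2:24077433-24085861, minus strand), which encodes a quinone oxidoreductase linked to reactive oxygen species, fell from 10.9, 9.65 and 10.3 RPKM to 6.18, 5.47 and 5.04 RPKM at 2 μM and 5.76, 5.22 and 5.17 RPKM at 10 μM. Its log2 fold changes were -0.83 (adjusted p = 0.000209, limma) and -0.88 (adjusted p = 0.00189, limma), and no treated library reached the untreated range. FAS (chr10:88990582-89015785, plus strand), the death receptor for Fas ligand, was at 7.48, 7.57 and 6.98 RPKM untreated, 11.1, 9.98 and 8.46 RPKM at 2 μM and 8.31, 10.3 and 11.5 RPKM at 10 μM. All 6 treated libraries lay above the untreated ones, with log2 fold changes of 0.39 (adjusted p = 0.0128, limma) and 0.41 (adjusted p = 0.0529, limma), but on libraries rescaled to an equal sum the values were 0.07 and -0.05.

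The genes of stress defense and DNA maintenance fell. SESN1 (chr6:108986437-109094819, minus strand) encodes sestrin 1, which restrains mTORC1, and was at 7.73, 7.06 and 7.16 RPKM in untreated HCT116 libraries. It was at 4.19, 4.50 and 3.89 RPKM after 6 h with 2 μM and at 3.45, 3.50 and 3.92 RPKM with 10 μM, below every untreated library. The log2 fold changes were -0.74 (SE 0.09, adjusted p = 0.000324, limma) and -0.92 (SE 0.11, adjusted p = 0.0018, limma). RRM2B (chr8:102204502-102239118, minus strand), a ribonucleotide reductase subunit that supplies deoxynucleotides for repair, was at 26.4, 26.4 and 27.0 RPKM untreated, 21.5, 20.0 and 19.4 RPKM at 2 μM and 16.0, 13.3 and 20.1 RPKM at 10 μM. Treated libraries lay below untreated ones, with log2 fold changes of -0.38 (adjusted p = 0.00146, limma) and -0.69 (adjusted p = 0.0127, limma). ZMAT3 (chr3:179017223-179072279, minus strand), which encodes an RNA-binding zinc finger protein that regulates splicing, was at 5.65, 5.73 and 6.29 RPKM untreated, 3.90, 4.15 and 4.06 RPKM at 2 μM and 3.01, 2.84 and 4.39 RPKM at 10 μM. Again no treated library reached the untreated range, with log2 fold changes of -0.49 (adjusted p = 0.00232, limma) and -0.73 (adjusted p = 0.0157, limma). At 10 μM, the calls of RRM2B and ZMAT3 were lost with median-ratio scaling (adjusted p = 0.0562 and 0.0566, limma) and without any 1 of the untreated libraries.

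MDM2 (chr12:68808176-68850686, plus strand), which encodes the ligase that degrades p53, was the member called in none of the 4 comparisons with untreated HCT116 cells. It was at 99.1, 89.5 and 103 RPKM untreated, 95.9, 88.8 and 93.3 RPKM after 6 h with 2 μM and 80.3, 72.6 and 85.0 RPKM with 10 μM. The libraries at 10 μM lay below the untreated ones and those at 2 μM overlapped them. Its 4 log2 fold changes ranged from -0.29 to -0.05. The interval at 10 μM and 6 h, -0.54 to -0.04, excluded 0 without adjustment (adjusted p = 0.0749, limma).

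**Figure D2:**
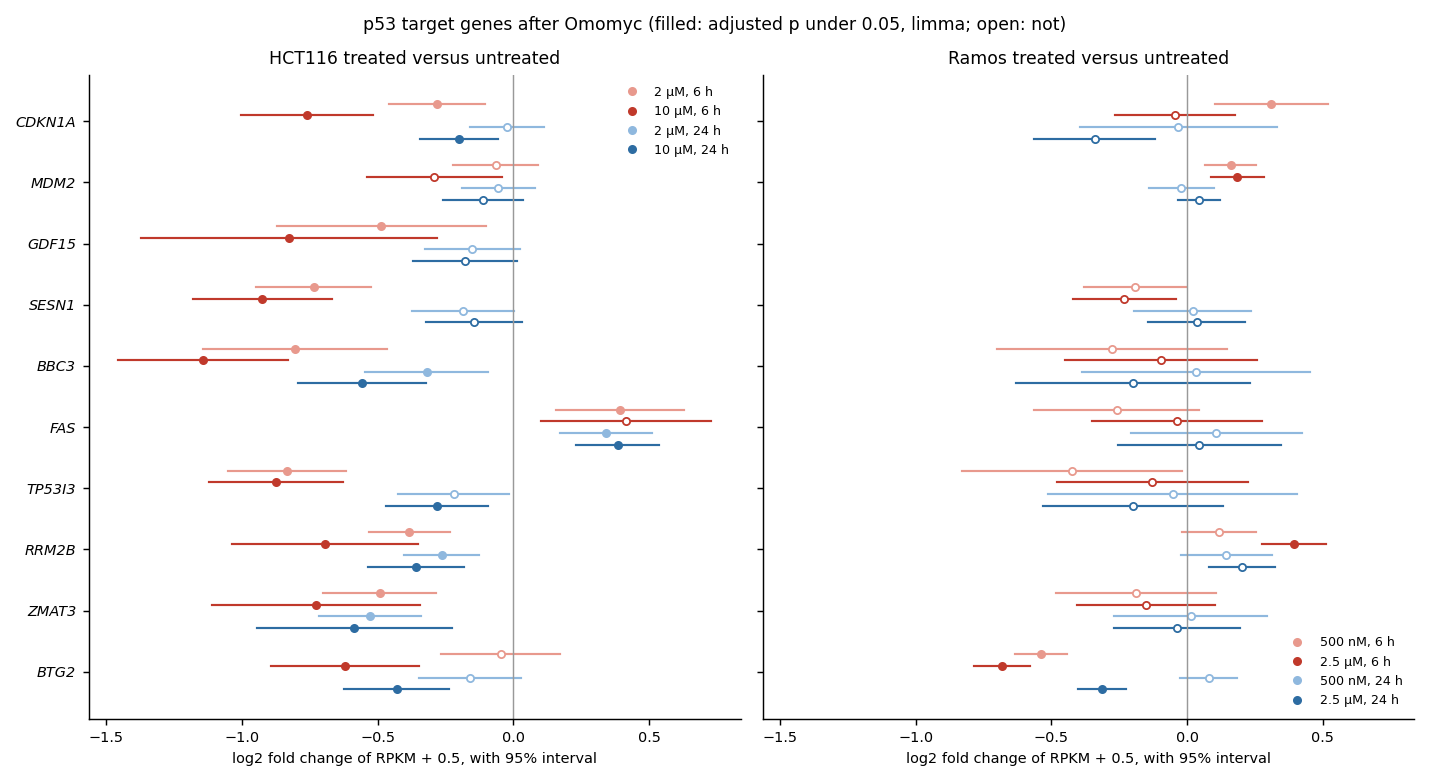
Log2 fold change of RPKM + 0.5 against untreated cells with its 95% interval for each p53 target gene, in HCT116 cells (left) and Ramos cells (right), by dose and time; filled points passed the adjusted p threshold of 0.05 in limma and open points did not. In HCT116 cells most points at 6 h lie left of 0 and FAS lies right of it, while in Ramos cells BTG2 is the only gene with points below -0.5, and GDF15 was not tested there.

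After 24 h, fewer of the genes differed from untreated HCT116 cells. At 2 μM, 3 genes were lower (BBC3, RRM2B and ZMAT3) and FAS was higher, with 27.3% of all 14886 genes called, 10.8% lower and 16.6% higher. At 10 μM, 6 genes were lower (these 3, CDKN1A, TP53I3 and BTG2) and FAS was higher, with 35.2% of all 14827 genes called, 15.7% lower and 19.5% higher. Groups did not overlap for 1 higher and 3 lower genes at 2 μM (44.9% of all genes) and for 1 higher and 7 lower genes at 10 μM (49.3% of all genes). The median log2 fold change of the 10 genes was -0.17 at 2 μM and -0.24 at 10 μM, beside 0.04 and 0.02 over all genes. With an equal sum these were -0.32 and -0.42, beside -0.10 and -0.14 over all genes. Among the 4 calls at 2 μM, all were lost when the 5 HCT116 groups were fitted together, and BBC3 and RRM2B were lost without untreated library 3.

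CDKN1A was at 68.2, 73.1 and 66.4 RPKM after 24 h with 2 μM and at 60.9, 65.1 and 57.6 RPKM with 10 μM. The first group overlapped the untreated libraries and the second lay just below them (log2 fold change -0.20, adjusted p = 0.0368, limma), a call lost in 4 of the 6 fits that left out a library. SESN1 was at 6.90, 6.44 and 5.81 RPKM at 2 μM and 6.28, 7.01 and 6.42 RPKM at 10 μM, again just below the untreated range, and did not pass (log2 fold changes -0.18 and -0.14). TP53I3 was at 8.44, 9.99 and 7.95 RPKM at 2 μM and 7.65, 9.15 and 8.37 RPKM at 10 μM. Its log2 fold change of -0.28 at 10 μM passed (adjusted p = 0.026, limma) and that of -0.22 at 2 μM did not (adjusted p = 0.101, limma). The libraries at 10 μM lay below the untreated ones and 1 library at 2 μM overlapped them, and the call was lost in 4 of the 6 fits that left out a library.

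BBC3 stayed lower at 24 h, at 6.73, 7.74 and 6.63 RPKM with 2 μM and 6.45, 5.94 and 5.28 RPKM with 10 μM, with log2 fold changes of -0.32 (adjusted p = 0.043, limma) and -0.56 (adjusted p = 0.00327, limma). The libraries at 10 μM lay below every untreated one, and 1 library at 2 μM overlapped them. ZMAT3 was at 3.71, 3.99 and 4.08 RPKM at 2 μM and 3.93, 2.74 and 4.85 RPKM at 10 μM, below all untreated libraries (log2 fold changes -0.53, adjusted p = 0.00299, and -0.59, adjusted p = 0.0186, limma). RRM2B was at 22.2, 23.7 and 20.4 RPKM and at 22.9, 21.1 and 18.2 RPKM, also below them (log2 fold changes -0.26, adjusted p = 0.0143, and -0.36, adjusted p = 0.00663, limma). BTG2 was lower with 10 μM, at 7.75, 8.01 and 7.20 RPKM (log2 fold change -0.43, adjusted p = 0.00413, limma), and at 8.92, 9.93 and 9.17 RPKM with 2 μM it overlapped the untreated libraries.

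FAS was at 8.93, 9.18 and 10.2 RPKM after 24 h with 2 μM and at 9.77, 9.67 and 9.75 RPKM with 10 μM. Every treated library again exceeded every untreated one, with log2 fold changes of 0.34 (adjusted p = 0.0112, limma) and 0.38 (adjusted p = 0.0023, limma), and with libraries rescaled to an equal sum these were 0.19 and 0.21 and did not pass. FAS lies across from ACTA2, CDKN1A from DINOL, MDM2 from CPM and TP53I3 from FAM228B on the other strand. The libraries were made with a stranded kit, but whether counting used the strand is not given in the sources used here, so reads of these partners may be shared.

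From 6 to 24 h in HCT116 cells, CDKN1A, SESN1, BBC3 and TP53I3 rose at both doses. The median log2 difference of the 10 genes was 0.19 at 2 μM and 0.45 at 10 μM, beside 0.16 and 0.15 over all genes. With median-ratio scaling these were 0.02 and 0.27, beside 0.01 and -0.01, so at 2 μM the 10 genes moved about as all genes did. At 2 μM, 40.8% of all 14775 genes were called, 30.9% higher and 9.85% lower, and 4 members did not overlap between times, beside 54.6% of all genes. At 10 μM, 7.86% of 14920 were called, 5.80% higher and 2.06% lower, and 6 members did not overlap, beside 38.2% of all genes. The log2 differences between 24 and 6 h at 2 μM were 0.26 for CDKN1A, 0.55 for SESN1, 0.49 for BBC3 and 0.61 for TP53I3, with adjusted p between 0.00347 and 0.0273 (limma). At 10 μM they were 0.56, 0.78, 0.59 and 0.59, with adjusted p between 0.012 and 0.0407 (limma). These 4 calls at 10 μM depended on single libraries, since none was made without any 1 of the 3 libraries at 24 h. With median-ratio scaling, the number of members called at 10 μM went from 4 to 1. ZMAT3, RRM2B and FAS did not pass at either dose, with differences of -0.04 and 0.14, 0.12 and 0.34, and -0.05 and -0.03. BTG2 (-0.11 and 0.19), MDM2 (0.01 and 0.18) and GDF15 (0.34 and 0.65) did not pass either.

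Between the doses in HCT116 cells, no member was called by limma. At 6 h, 0 of 14601 genes were called in all, while 2 members and 1242 genes had an unadjusted p under 0.05. These members were CDKN1A (log2 difference of 10 against 2 μM -0.48, adjusted p = 0.44) and BTG2 (-0.57, adjusted p = 0.417, limma). At 24 h, 0.180% of 15039 genes were called, 0.140% higher and 0.0399% lower, and CDKN1A, BBC3 and BTG2 had an unadjusted p under 0.05, with log2 differences of -0.18, -0.24 and -0.27 (adjusted p of 0.337, 0.407 and 0.269, limma). At each time, 3 members did not overlap between the doses, beside 18.2% and 18.1% of all genes. BTG2 was among them at both times, and both its values and those of CDKN1A were lower at the higher dose.

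**Figure D3:**
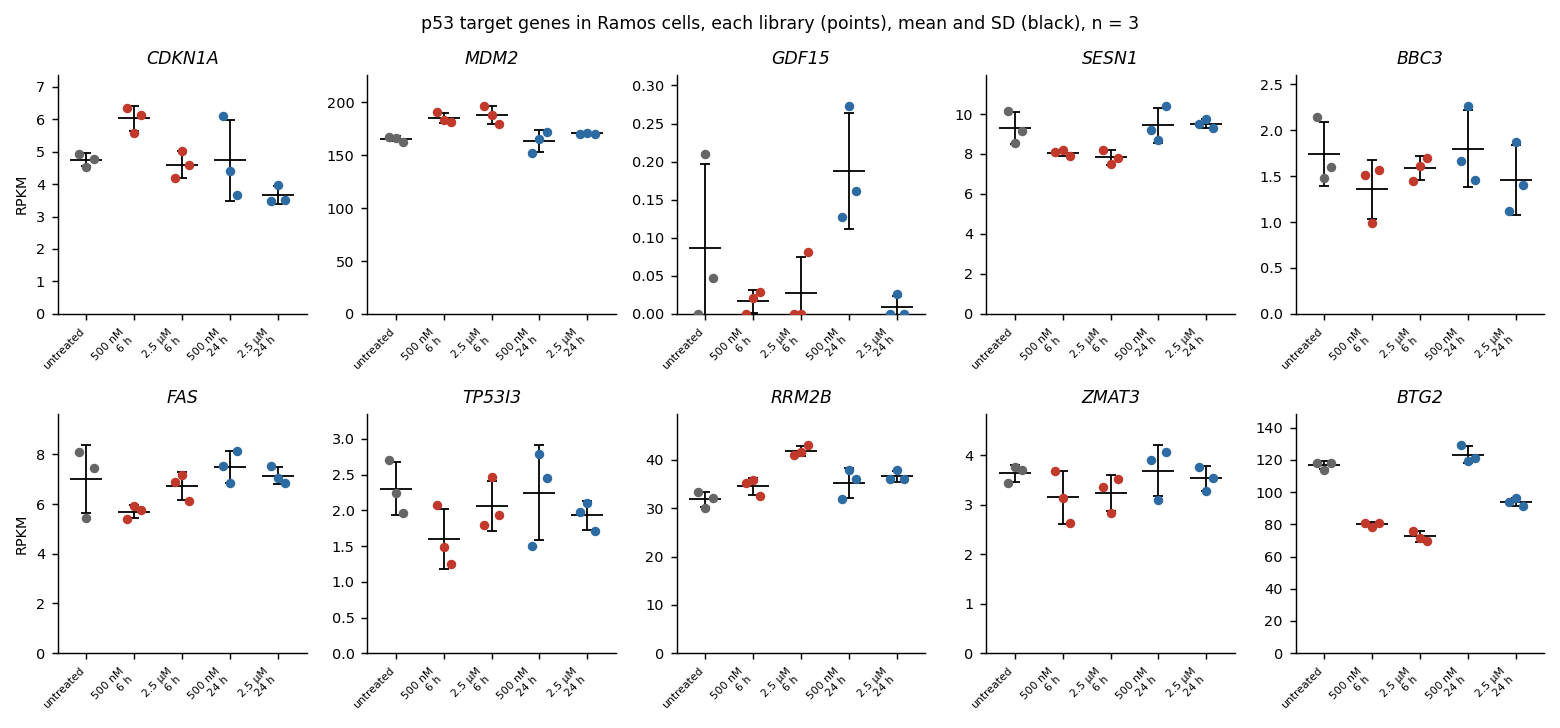
RPKM of the 10 p53 target genes in each Ramos library (points), with the mean and SD of the 3 libraries per group in black, for untreated cells and for 500 nM or 2.5 μM Omomyc at 6 h (red) and 24 h (blue). BTG2 falls from about the untreated 117 RPKM to 72.5 RPKM on average at 2.5 μM and 6 h, while most other genes overlap the untreated libraries and GDF15 stays at or below 0.273 RPKM.

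In Ramos cells, 9 of the 10 genes were tested. At 6 h, 3 of these 9 were called at each dose, not far from the share over all genes. After 6 h with 500 nM Omomyc, CDKN1A and MDM2 rose and BTG2 fell, with 23.6% of all 13614 genes called, 13.8% higher and 9.73% lower. After 6 h with 2.5 μM, MDM2 and RRM2B rose and BTG2 fell, with 27.9% of all 13595 genes called, 17.3% higher and 10.7% lower. After 24 h with 500 nM, 0 members and 2 of 13674 genes (0.0146%) were called by limma, and at an unadjusted p under 0.05 these were 0 members and 763 genes. After 24 h with 2.5 μM, BTG2 was lower and the other 8 did not pass, with 4.61% of 13607 genes called, 1.31% lower and 3.30% higher. At 6 h, 2 higher and 2 lower genes did not overlap with untreated libraries at each dose, beside 41.4% and 44.7% of all genes. The median log2 fold change of the 9 genes was -0.19 and -0.09 at 6 h for the lower and higher dose, and 0.02 and -0.04 at 24 h, beside medians over all genes of 0.02, 0.03, 0.02 and 0.05.

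BTG2, which was 1 of the most abundant members in this B cell line, carried the clearest change. It was at 118, 114 and 118 RPKM in untreated Ramos libraries, 81.0, 78.5 and 81.0 RPKM after 6 h with 500 nM and 76.2, 71.5 and 69.9 RPKM after 6 h with 2.5 μM. At 24 h it was at 129, 119 and 121 RPKM with 500 nM and 93.8, 96.2 and 91.2 RPKM with 2.5 μM. No group overlapped another, and the order from the highest was 500 nM at 24 h, untreated, 2.5 μM at 24 h, 500 nM at 6 h and 2.5 μM at 6 h. Against untreated cells, its log2 fold changes were -0.54 (SE 0.04, adjusted p = 0.000139, limma) and -0.68 (SE 0.04, adjusted p = 4.24e-05, limma) at 6 h, and 0.08 (adjusted p = 0.864, limma) and -0.31 (adjusted p = 0.00754, limma) at 24 h. The last call was lost with libraries rescaled to an equal sum (-0.11, adjusted p = 0.237, limma) and without library 3 at 2.5 μM and 24 h.

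MDM2 was at 167, 166 and 163 RPKM in untreated Ramos libraries, 191, 183 and 181 RPKM at 500 nM and 6 h and 197, 188 and 180 RPKM at 2.5 μM and 6 h. All 6 treated libraries exceeded the untreated ones, by small log2 fold changes of 0.16 (adjusted p = 0.0241, limma) and 0.18 (adjusted p = 0.0138, limma). Both calls were lost with libraries rescaled to an equal sum over protein-coding genes, and the first without any 1 library. RRM2B was at 33.3, 30.1 and 32.0 RPKM untreated and at 41.0, 41.7 and 43.1 RPKM after 6 h with 2.5 μM, with no overlap (log2 fold change 0.39, adjusted p = 0.000982, limma). Its direction was the opposite of that in HCT116 cells.

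CDKN1A in Ramos cells was low throughout, at 4.94, 4.54 and 4.78 RPKM untreated, 6.34, 5.58 and 6.14 RPKM at 500 nM and 6 h and 4.18, 5.02 and 4.59 RPKM at 2.5 μM and 6 h. It rose at the lower dose without overlap (log2 fold change 0.31, adjusted p = 0.0394, limma), a call lost without any 1 library, and the higher dose overlapped the untreated libraries (-0.05, adjusted p = 0.763, limma). At 24 h it was at 6.11, 4.41 and 3.66 RPKM with 500 nM and at 3.48, 3.97 and 3.50 RPKM with 2.5 μM, the latter below the untreated range without passing the test (-0.34, adjusted p = 0.089, limma). SESN1, BBC3, FAS, TP53I3 and ZMAT3 passed in none of the 4 comparisons with untreated Ramos cells, with log2 fold changes between -0.43 and 0.11. At 6 h, SESN1 was at 7.88 to 8.19 RPKM with 500 nM and 7.49 to 8.22 RPKM with 2.5 μM. These lay below the untreated 8.57 to 10.1 RPKM, with an unadjusted p under 0.05 (limma) at both doses. For BBC3 at 2.5 μM and 6 h the 95% interval, -0.45 to 0.26, did not reach the value of -0.81 found in HCT116 cells at 2 μM.

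From 6 to 24 h in Ramos cells, BTG2 and FAS rose and MDM2 fell at 500 nM, where 25.4% of 13611 genes were called. At 2.5 μM, BTG2 and SESN1 rose and MDM2 and RRM2B fell, where 23.0% of 13564 genes were called. The differences of BTG2 were 0.62 (adjusted p = 3.68e-05, limma) and 0.37 (adjusted p = 0.000386, limma). FAS was at 5.40, 5.91 and 5.76 RPKM at 6 h and at 7.51, 6.86 and 8.13 RPKM at 24 h with 500 nM (log2 difference 0.37, adjusted p = 0.0148, limma). MDM2 differed by -0.18 and -0.14, RRM2B by -0.19 and SESN1 by 0.27. Between the doses, 0 members were called at 6 h by limma, where 0.429% of 13511 genes were called and 4 members (CDKN1A, FAS, RRM2B and BTG2) had an unadjusted p under 0.05. At 24 h, BTG2 was lower at the higher dose (-0.39, adjusted p = 0.00254, limma), where 4.25% of 13629 genes were called.

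The change from untreated was then compared between the lines at the nearest doses, 2 μM in HCT116 and 2.5 μM in Ramos cells, by an interaction term. The lines differ in p53 status, tissue and dose, and may differ in the delivery reagent, and these cannot be told apart. At 6 h, 7 of the 10 genes differed, against 40.6% of all 15562 genes, 28.4% lower and 12.2% higher in HCT116 cells. The median difference was -0.34 for the 10 genes and -0.14 over all genes, and with median-ratio scaling -0.24 and -0.02. The change was lower in HCT116 cells for RRM2B (-0.78, adjusted p = 2.29e-05, limma), BBC3 (-0.71, adjusted p = 0.0215), TP53I3 (-0.71, adjusted p = 0.00654), SESN1 (-0.51, adjusted p = 0.00364), ZMAT3 (-0.34, adjusted p = 0.0366) and MDM2 (-0.25, adjusted p = 0.0269). It was higher in HCT116 cells for BTG2 (0.64, adjusted p = 0.000746, limma), which fell in Ramos cells at 2.5 μM and did not pass in HCT116 cells at 2 μM. BTG2 also fell in HCT116 cells at 10 μM and 6 h (-0.62). Its interaction did not pass with libraries rescaled to an equal sum or with the highest dose of each line. CDKN1A (-0.24, adjusted p = 0.116) and FAS (0.43, adjusted p = 0.085, limma) did not pass. GDF15 (-0.35, adjusted p = 0.314, limma) passed the filter on low values only through its level in HCT116 cells. In Ramos libraries it was at or below 0.273 RPKM, so its term cannot show whether the lines differ. It is still counted among the 10 genes and in their median, here and at 24 h.

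At 24 h, 3 of the 10 genes differed between the lines, against 16.3% of all 15714 genes, 9.51% lower and 6.81% higher in HCT116 cells. These were ZMAT3 (-0.49, adjusted p = 0.0094, limma), RRM2B (-0.47, adjusted p = 0.00412, limma) and CDKN1A (0.32, adjusted p = 0.0384, limma). CDKN1A had a log2 fold change of -0.02 in HCT116 cells and -0.34 in Ramos cells. With libraries rescaled to an equal sum, its interaction was -0.02, and 4 genes were called, all lower in HCT116 cells.

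**Figure D4:**
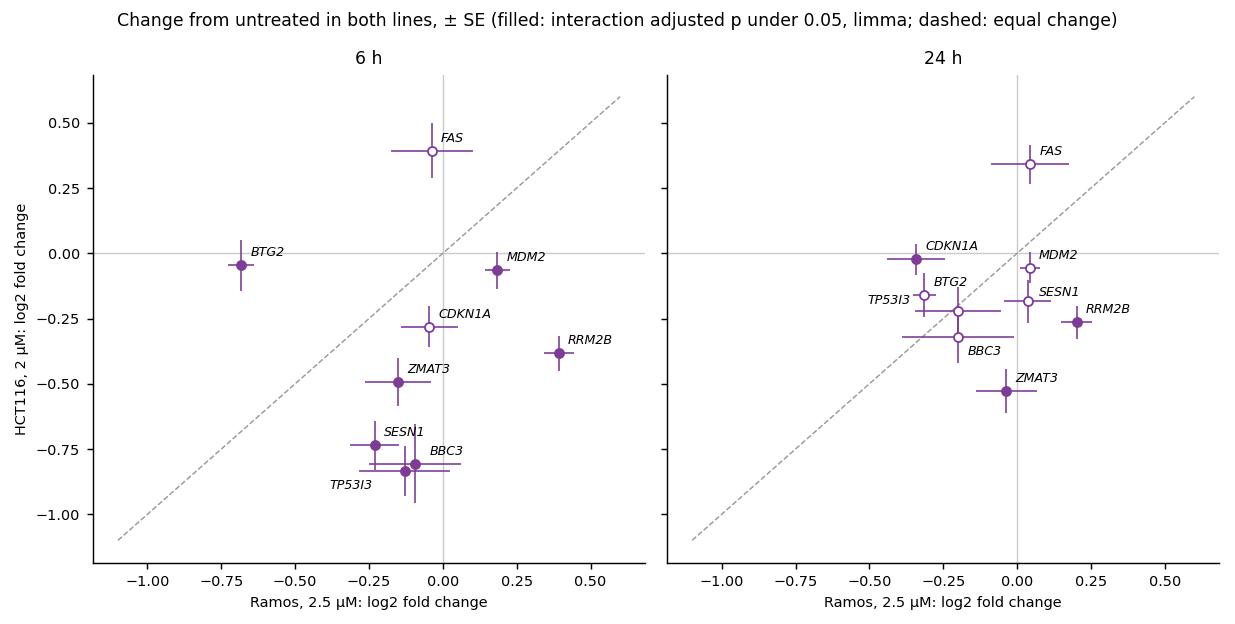
Log2 fold change from untreated in HCT116 cells at 2 μM (vertical axis) against Ramos cells at 2.5 μM (horizontal axis), with SE bars, at 6 h (left) and 24 h (right); filled points passed the interaction test in limma and the dashed line marks equal change (GDF15, not tested within Ramos cells, is not drawn). At 6 h, the filled points of SESN1, BBC3, TP53I3, RRM2B, ZMAT3 and MDM2 lie below the line and that of BTG2 above it. The open points are CDKN1A, below the line, and FAS, above it. By 24 h most points lie nearer to the line.

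Regulators of p53 were followed beside its targets. PPM1D, a phosphatase that is itself a p53 target and turns the pathway off, fell in HCT116 cells (-0.41, -0.62, -0.19 and -0.35) and rose in Ramos cells at 6 h (0.36 and 0.52). MDM4, a partner of MDM2, fell in HCT116 cells at 2 μM and 6 h (-0.34, adjusted p = 0.012, limma) and in Ramos cells at 2.5 μM and 6 h (-0.20, adjusted p = 0.0461, limma). MYC rose in HCT116 cells at 2 μM and 6 h (0.40) and fell at 24 h (-0.30 at both doses). In Ramos cells MYC rose at 2.5 μM at 6 h (0.35, adjusted p = 0.00292, limma) and 24 h (0.27, adjusted p = 0.0424, limma) and did not pass at 500 nM (0.04 at both times), and its interaction of line and treatment at 24 h was -0.57 (adjusted p = 0.00173, limma). ZBTB17, which encodes Miz-1, rose in HCT116 cells at 2 μM and 24 h (0.30, adjusted p = 0.0289, limma) and fell in Ramos cells at 2.5 μM and 6 h (-0.24, adjusted p = 0.0147, limma). Of 21 p53 regulators tested in HCT116 cells, 8 fell and 1 rose at 2 μM and 6 h, and 3 fell at 10 μM and 6 h. At 24 h, 3 fell at 2 μM and 4 fell at 10 μM. Of all genes, 31.8%, 21.2%, 10.8% and 15.7% fell and 15.5%, 8.84%, 16.6% and 19.5% rose in this order. The medians of the regulators were -0.04, -0.24, -0.03 and -0.07, beside -0.12, -0.11, 0.04 and 0.02 over all genes. The kinase genes PRKDC and ATM (-0.80 and -0.79) had the largest falls at 2 μM and 6 h, and RCHY1, a ubiquitin ligase for p53, was the 1 that rose (0.67).

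Another 36 p53 targets, of which 33 were tested in HCT116 cells, divided between rises and falls. At 6 h, 13 rose and 13 fell at 2 μM, and 7 rose and 11 fell at 10 μM. At 24 h, 8 rose and 7 fell at 2 μM, and 7 rose and 10 fell at 10 μM. Of all genes, 15.5%, 8.84%, 16.6% and 19.5% rose and 31.8%, 21.2%, 10.8% and 15.7% fell in this order. The medians of the 33 targets were 0.01, -0.02, 0.08 and -0.00, beside the medians over all genes of -0.12, -0.11, 0.04 and 0.02. The largest falls at 6 h were in TP53INP1, a stress gene that promotes autophagy and cell death, from 6.23 ± 0.294 to 1.92 ± 0.247 RPKM (SD, n = 3) at 2 μM (log2 fold change -1.48, adjusted p = 3.11e-05, limma) and by -1.74 at 10 μM. APAF1, the core of the apoptosome, fell by 1.14 on the log2 scale at 2 μM, and SESN2, a second sestrin gene, by 1.23 at 10 μM. PLK3, which encodes a stress kinase, rose from 12.4 ± 0.286 to 33.6 ± 3.11 RPKM (SD, n = 3) at 2 μM and 6 h (log2 fold change 1.39). At 24 h, SFN, which encodes the cell cycle inhibitor 14-3-3 sigma, rose by 0.63 and 0.68, PIDD1 by 0.50 and 0.56, and PLK2, another stress kinase gene, and SESN2 fell by 0.66 and 0.62 at 2 μM and by 0.72 and 0.72 at 10 μM.

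**Figure D5:**
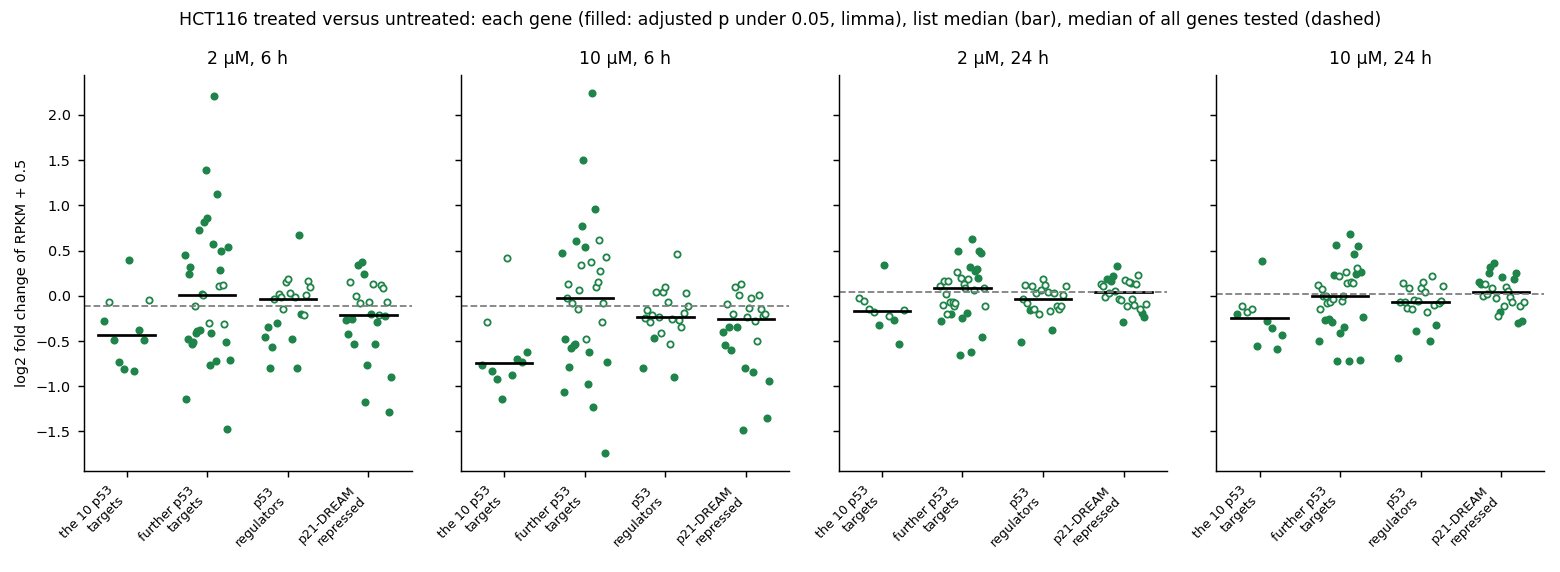
Log2 fold change of each gene against untreated HCT116 cells in the 4 treated groups, for the 10 p53 targets, further p53 targets, p53 regulators and genes repressed through p21 and DREAM; filled points passed the adjusted p threshold in limma, bars are list medians and the dashed line is the median of all genes tested. The bar of the 10 targets lies below the dashed line in each panel (-0.43, -0.74, -0.17 and -0.24), whereas further targets spread to both sides.

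p53 represses many cell cycle genes indirectly, since p21 leads to assembly of the DREAM repressor complex at their promoters. Of 24 such genes in HCT116 cells, 3 rose and 12 fell at 2 μM and 6 h, and 0 rose and 10 fell at 10 μM and 6 h. Of all genes, 15.5% rose and 31.8% fell in the first of these comparisons and 8.84% and 21.2% in the second, and the medians of the 24 genes were -0.21 and -0.26 beside -0.12 and -0.11. At 24 h, 5 rose and 3 fell at 2 μM, and 8 rose and 3 fell at 10 μM, while 16.6% and 19.5% of all genes rose and 10.8% and 15.7% fell. TOP2A, which encodes a DNA topoisomerase of dividing cells, fell at 6 h (-1.28 and -1.35), as did the phosphatase gene CDC25C (-1.17 and -1.48), while the mitotic genes CDC20 (0.37) and CCNB1 (0.34) rose at 2 μM. In Ramos cells at 6 h, 8 rose and 7 fell at 500 nM and 11 rose and 6 fell at 2.5 μM, while 13.8% and 17.3% of all genes rose and 9.73% and 10.7% fell. There the cyclin genes CCNB1 (-0.83 and -0.76) and CCNB2 (-0.60 and -0.46) fell, and RRM2 (0.65 and 0.69) and E2F1 (0.60 and 0.69) rose. Of the further p53 targets in Ramos cells, 27 were tested at 6 h, of which 4 rose and 2 fell at 500 nM and 7 rose and 3 fell at 2.5 μM, with medians of -0.04 and 0.04 beside 0.02 and 0.03 over all genes. SFN rose there from 0.245 ± 0.182 to 0.866 ± 0.074 RPKM (SD, n = 3) at 2.5 μM, a low level. Untreated cells alone would not have met the minimum mean of 0.5 RPKM, and SFN entered the test through its treated libraries. It is still counted among the genes that rose at 6 h. At 24 h, SFN was not tested against untreated Ramos cells at either dose. TRIM22, an interferon-induced gene, fell by 0.56 and 0.51 on the log2 scale at 6 h.

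Likeness of pattern was described by Pearson's r of log2(RPKM + 0.5) over the 15 HCT116 libraries, which share untreated samples, depth and scale, among 11708 genes. The gene most like CDKN1A was ANP32A (r = 0.963), that most like SESN1 was the histone gene HIST1H2AB (r = 0.987), followed by HIST1H2AG (0.978) and HIST1H2BL (0.978), and that most like RRM2B was GLO1 (0.986). BBC3 was most like ETV5 (0.965), TP53I3 like KLHL12 (0.979), ZMAT3 like SCRN3 (0.931), FAS like PXN-AS1 (0.933), GDF15 like ZNF319 (0.934), MDM2 like NCKAP1 (0.930) and BTG2 like EIF3C (0.925). Within the 10 genes, SESN1 and TP53I3 were the most alike of the pairs computed (r = 0.948), and FAS ran against BBC3 (r = -0.740).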

How the data were processed

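Total RNA of 30 libraries (HCT116 and Ramos, 10 groups of 3) was extracted with an RNeasy kit, depleted of rRNA and sequenced after a stranded TruSeq preparation. The authors deposited 1 table of RPKM values, with 1 column per library and no pooling. The submitters' processing notes name RSEM. The aligner, genome build and annotation are not given in the sources used here. The RPKM values do not sum to the same total, and read counts were not used here, so no counting intervals are given and only relative depth was estimated.

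Groups were taken from the labels. RPKM was transformed as log2(RPKM + 0.5), so fold changes of low genes are understated. Genes with a mean of at least 0.5 RPKM over the libraries of a comparison were fitted with limma 3.58.1 in R 4.3.3 (empirical Bayes with a mean trend). p-values were two-sided and adjusted by the Benjamini-Hochberg method over all genes tested, and an adjusted p under 0.05 was a call. In all, 19 comparisons were made, 16 within a line, 1 between the untreated lines and 2 interactions of line and treatment. Comparisons with untreated cells of a line share its 3 untreated libraries. The fits were tested on simulated data. An exact permutation test of 3 against 3 libraries cannot go below p = 0.1.

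Of 57992 gene IDs, 57388 matched GENCODE 29 and 604 did not. Promoter sequences came from RefSeq. The members and gene lists were chosen with earlier results of these data known. The text names the 10 genes, MDM4, PPM1D, MYC and ZBTB17, and from the other lists the 2 largest called rises and falls without overlap in each comparison with untreated cells. Some genes that this rule would name are not reported here. Alternatives were other pseudocounts, filters and scalings, a replicate block, all groups in 1 fit, the highest doses and leaving out each library. Rescaling to the protein-coding sum was chosen after seeing the data. Replicate pairs had r of 0.965 to 0.994, and 0 of 30 were identical.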

Additional observations from a re-analysis of the deposited data

Results flagged for a closer look

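The change from untreated cells differed between HCT116 cells at 2 μM and Ramos cells at 2.5 μM for 7 of the 10 genes at 6 h, by the interaction term in limma. Of all genes, 28.4% were lower and 12.2% higher in HCT116 cells by this term, with a median over all genes of -0.14. The difference of log2 fold changes, HCT116 minus Ramos, was -0.78 for RRM2B (adjusted p = 2.29e-05), which fell in HCT116 cells and rose in Ramos cells. It was -0.71 for BBC3 (adjusted p = 0.0215), -0.71 for TP53I3 (adjusted p = 0.00654) and -0.51 for SESN1 (adjusted p = 0.00364), which fell in HCT116 cells and did not pass in Ramos cells. ZMAT3 (-0.34, adjusted p = 0.0366) and MDM2 (-0.25, adjusted p = 0.0269) also differed, MDM2 because of its rise in Ramos cells beside a log2 fold change of -0.07 in HCT116 cells. BTG2 was the 1 gene with a positive difference (0.64, adjusted p = 0.000746). At 24 h the differences were -0.47 for RRM2B (adjusted p = 0.00412), -0.49 for ZMAT3 (adjusted p = 0.0094) and 0.32 for CDKN1A (adjusted p = 0.0384).

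With the libraries rescaled to an equal sum, BTG2 at 6 h no longer passed (0.17, adjusted p = 0.318), nor with the highest dose of each line (0.06, adjusted p = 0.72). The call of ZMAT3 at 6 h was lost in 8 of the 12 fits that left out a library, as was that of CDKN1A at 24 h, and that of MDM2 at 6 h in 5. The calls of SESN1, TP53I3 and RRM2B at 6 h and of RRM2B at 24 h were kept in every alternative fit and every fit that left out a library.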

How the results depend on the processing

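Among the calls of single genes, those of SESN1, BBC3, TP53I3, RRM2B and ZMAT3 in HCT116 cells at 2 μM and 6 h, of CDKN1A, SESN1, BBC3, TP53I3 and BTG2 at 10 μM and 6 h, and of BTG2 in Ramos cells at 6 h were kept under every alternative and without any 1 library. Among called values of the 10 genes, 3 changed sign, all with libraries rescaled to an equal sum. Between the untreated lines SESN1 turned to 0.22 and RRM2B to 0.32, and the interaction of CDKN1A at 24 h to -0.0248. FAS at 10 μM and 6 h, not called as deposited, turned from 0.41 to -0.05, and other values that were not called also changed sign. The cause was not tested.

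The number of the 10 genes called changed by over 1.5 times as follows. In HCT116 cells it went from 4 to 7 with an equal sum and to 0 with all groups in 1 fit at 2 μM and 24 h. At 10 μM and 24 h it went from 7 to 4 without a filter and to 4 with all groups in 1 fit. From 6 to 24 h it went from 4 to 2 without a filter at 2 μM, and from 4 to 1 without a filter, with median-ratio scaling or with an equal protein-coding sum at 10 μM. For the doses at 6 h it went from 0 to 2 with all groups in 1 fit. In Ramos cells it went from 3 to 1 with an equal protein-coding sum at 500 nM and 6 h, from 1 to 2 with an equal sum or all groups in 1 fit at 2.5 μM and 24 h, from 4 to 2 with an equal sum from 6 to 24 h at 2.5 μM, and from 0 to 1 with a mean of at least 2 RPKM for the doses at 6 h. The interaction at 24 h went from 3 to 1 with all groups in 1 fit or the highest doses.

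Replicate numbers are not stated to mark a shared day or culture. In no comparison did every pair of deviations of same-numbered libraries correlate above 0.1, although single pairs reached 0.184. With few libraries per group, this cannot exclude that the libraries were paired. With the replicate block, the 4 calls from 6 to 24 h at 10 μM in HCT116 cells became 0, and 10 calls of single genes were lost in all. No block was fitted between the untreated lines.

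Leaving out 1 library gave 6 to 8 genes in HCT116 cells at 2 μM and 6 h, 2 to 5 at 2 μM and 24 h, 5 to 10 at 10 μM and 6 h, 4 to 8 at 10 μM and 24 h, 2 to 5 from 6 to 24 h at 2 μM and 0 to 5 at 10 μM, and 0 to 0 between doses at both times. The lowest values came without untreated library 3 at 2 μM and 24 h (2) and at 10 μM and 24 h (4), without any untreated library at 10 μM and 6 h (5), without library 1 at 6 h or library 1 or 2 at 24 h for 2 μM from 6 to 24 h (2), and without any library at 24 h for 10 μM (0), where leaving out library 1 or 2 at 6 h gave 1 and 2. In Ramos cells the ranges were 1 to 2 at 500 nM and 6 h (1 without any treated library or untreated library 1 or 3), 0 to 0 at 500 nM and 24 h, 2 to 4 at 2.5 μM and 6 h, 0 to 1 at 2.5 μM and 24 h (0 without treated library 3), 2 to 3 and 2 to 4 from 6 to 24 h at 500 nM and 2.5 μM (2 without library 2 at either time at 2.5 μM), 0 to 0 between doses at 6 h and 1 to 1 at 24 h. They were 9 to 9 between the untreated lines, 5 to 8 for the interaction at 6 h and 2 to 4 at 24 h.

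Counts over all genes that moved by over 1.5 times, given as deposited with their lowest and highest alternative, were in HCT116 cells 4071 (1113 to 4133) at 2 μM and 24 h, 4439 (3161 to 7180) at 10 μM and 6 h, 5220 (2535 to 5268) at 10 μM and 24 h, 1173 (256 to 4297) from 6 to 24 h at 10 μM, and 0 (0 to 137) and 27 (5 to 47) between doses. In Ramos cells they were 3209 (2008 to 4316), 2 (0 to 4) and 627 (84 to 5365) at 500 nM and 6 h, 500 nM and 24 h and 2.5 μM and 24 h, 3462 (2307 to 3952) and 3125 (2040 to 3177) from 6 to 24 h, and 58 (0 to 91) and 579 (65 to 2563) between doses. For the interactions they were 6317 (4881 to 9816) and 2565 (1238 to 6381). The share of calls that were higher moved by over 10 points, for counts of at least 10 genes, with an equal sum and median-ratio scaling, at 2 μM and 6 h from 32.7% to 6.85% and 51.8%, at 10 μM and 6 h from 29.4% to 4.37% and 49.5%, at 2 μM and 24 h from 60.6% to 23.1% and 49.1%, and in Ramos cells at 2.5 μM from 61.8% to 85.2% and 51.5% at 6 h and from 71.6% to 97.4% and 43.4% at 24 h. From 6 to 24 h in HCT116 cells it moved from 75.8% to 92.4% and 47.4% at 2 μM and from 73.7% to 92.0% and 42.2% at 10 μM, between doses in Ramos cells at 24 h from 56.3% to 92.6% and 39.4%, and for the interaction at 6 h from 30% to 5.46% and 47.3%. With an equal sum and not median-ratio scaling it moved in HCT116 cells at 10 μM and 24 h from 55.3% to 20.5% and between doses at 24 h from 77.8% to 44.7%, in Ramos cells at 500 nM and 6 h from 58.7% to 79.7%, from 6 to 24 h at 2.5 μM from 55.0% to 77.0% and between doses at 6 h from 43.1% to 69.7%, between the lines from 53.9% to 72.6% and for the interaction at 24 h from 41.7% to 5.27%. With an equal protein-coding sum it moved from 6 to 24 h in HCT116 cells at 10 μM to 54.1%, and in Ramos cells at 2.5 μM to 48.7% at 6 h and 46.6% at 24 h and between doses to 29.7% at 6 h and 42.1% at 24 h.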

Other observations

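Over the 15 Ramos libraries, the genes whose pattern was most like that of BTG2 by Pearson's r of log2(RPKM + 0.5) were EGR2 (0.993), CCL3 (0.992) and CLEC17A (0.989). These were looked up after the values of BTG2 in Ramos cells were seen, and the libraries share depth and untreated samples. EGR2 is an immediate early transcription factor and CCL3 a chemokine.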
